A study of Mus musculus with 12 samples.

Results

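Livers of mice without Hsd17b13, an enzyme on the lipid droplets of hepatocytes, were compared with wild-type livers for 42 genes of the blood plasma cascades: 21 encode complement proteins and 21 encode proteins of coagulation and fibrinolysis. The genes were taken by name from a fixed list and all 42 were found among the 20143 genes of the expression table. Every one of them was tested. None passed the threshold in either direction, and the tests placed the change of each gene between 0.835-fold and 1.42-fold (the outer bounds of the 95% intervals of all 42 genes). The small differences nevertheless pointed one way for most genes: 41 of the 42 had a higher mean in the knockout livers, with a median log2 difference of 0.10.

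The samples were 6 wild-type livers (WT) and 6 livers with the Hsd17b13-KO genotype (KO). All 12 mice, controls included, ate CDAA-HFD, which is rich in fat, supplies defined amino acids, lacks choline and gives mice a fatty, inflamed and fibrotic liver. Feeding began at an age between 8 and 10 weeks and lasted 12 weeks, so the comparison is of genotypes within diseased liver and a healthy reference liver was not analysed here. Liver RNA was sequenced, 1 library per sample; the protocol describes removal of ribosomal RNA while the molecule label names polyA RNA. The sources used here do not say how the knockout was made, whether it covers all tissues, or the strain, sex, litter or batch of the mice. Samples carry the numbers 1 to 6 within each genotype. The labels do not spell out that each number is a separate animal, so p-values measure the spread between these libraries.

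Complement is a set of plasma proteases and binding proteins that marks targets for removal. C1q (classical pathway) and mannose-binding lectins (lectin pathway) recognise a surface, the convertases built from C4, C2, C3 and factor B cleave C3, and the terminal components C5 to C9 form a pore. Coagulation is a second protease cascade: thrombin turns fibrinogen into fibrin, antithrombin and protein C hold it back, and plasmin dissolves the clot. Hepatocytes secrete most of these proteins, and several are acute-phase proteins whose genes respond to interleukin-6 or interferon. C1q is the exception, being made mainly by macrophages.

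Values are CPM (counts scaled to a library total of 1000000), as the authors deposited them, so a value is a share of a library and not a concentration. Differences are KO minus WT means of log2(CPM + 1), tested with limma over the 9186 genes that averaged 10 CPM or more, with Benjamini-Hochberg adjustment over all of them and a threshold of 0.05. A gene past that threshold is said to have passed. One CPM stood for 46.3 to 77.9 reads, and the lowest value of any of the 42 genes in any library was 2061 reads, whose counting error is 2.20%. Depth was therefore not what limited these comparisons: WT livers varied among themselves by 3.82 to 17.3% (coefficient of variation) and KO livers by 2.47 to 24.4%.

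The deleted gene followed the labels. Hsd17b13 (ENSMUSG00000034528, chr5:103955440-103977410 in mm10) was at 347 ± 36.0 CPM in WT (SD, n = 6; lowest 315, highest 393) and at 1.18 ± 0.181 CPM in KO (lowest 0.956, highest 1.40), and its log2 difference was -7.32 (limma adjusted p = 1.31e-16). Across all genes 14 of 9186 passed (0.152%), 10 of them higher in KO (0.109%) and 4 lower, with 9 passing without WT mouse 3 and 25 without KO mouse 3. With median-of-ratios scaling 10 were higher and 8 lower, and with quantile normalization 11 and 8. Hepatocyte markers were abundant: the 10 listed, among them Alb, summed to 76226 to 96634 CPM in WT and 76731 to 92709 CPM in KO. None of the 42 genes lies on chromosome 5, which holds Hsd17b13. Of the 14 genes that passed, 8 lie on that chromosome, where 595 genes were tested. Of those 8, 5 were higher and 3 lower in KO, Hsd17b13 among the lower.

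The 3 chains of fibrinogen show how closely such genes can move together, and their upstream sequences are printed here because the genes sit side by side and are textbook targets of the acute-phase response. Fgg (ENSMUSG00000033860, chr3:83007724-83015049), Fga (ENSMUSG00000028001, chr3:83026076-83033627) and Fgb (ENSMUSG00000033831, chr3:83040141-83049863) lie on mouse chromosome 3, with 11026 bases between Fgg and Fga and 6513 between Fga and Fgb. The stretches below are RefSeq sequence of build GRCm38.p6 that ends at the base before the annotated transcript start, printed 5′ to 3′ on the strand of the gene. Fga is chr3:83025903-83026075 (plus strand, 173 bases), Fgb is chr3:83049864-83050113 (minus strand, 250 bases) and Fgg is chr3:83007474-83007723 (plus strand, 250 bases). Capitals mark matches, on either strand, to TTCNNNGAA (the palindrome that STAT factors bind), TTGCNNAA (a pattern of C/EBP sites) and CTGGGAA (the core of the interleukin-6 element of fibrinogen genes).
Fga: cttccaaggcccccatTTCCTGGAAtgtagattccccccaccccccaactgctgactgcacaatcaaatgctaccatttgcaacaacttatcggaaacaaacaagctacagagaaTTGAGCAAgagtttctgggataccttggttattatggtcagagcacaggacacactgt
Fgb: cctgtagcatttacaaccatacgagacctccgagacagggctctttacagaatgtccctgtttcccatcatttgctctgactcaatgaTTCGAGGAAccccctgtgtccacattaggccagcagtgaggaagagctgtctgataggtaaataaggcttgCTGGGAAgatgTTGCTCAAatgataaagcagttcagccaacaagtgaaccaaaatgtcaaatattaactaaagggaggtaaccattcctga
Fgg: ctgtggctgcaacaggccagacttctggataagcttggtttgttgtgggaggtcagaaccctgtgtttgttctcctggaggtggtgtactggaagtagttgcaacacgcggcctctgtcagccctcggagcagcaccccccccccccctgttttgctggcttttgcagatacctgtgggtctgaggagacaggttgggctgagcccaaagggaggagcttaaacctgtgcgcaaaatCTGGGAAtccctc
Fga holds a STAT-type and a C/EBP-type match, Fgb holds all 3 patterns, and Fgg holds the interleukin-6 core alone. A match is a string of letters and no evidence of binding.

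Promoter windows of 250 bases before and 50 after the start were at hand for 32 of the 42 genes. Proc, Plg, Kng1, C4b, Masp1, Cfi, Cfb, C1qa, C2 and Serping1 had no window and were not searched. TTCNNNGAA was in 7 of those 32 (21.9%, among them F9, C8a and Vtn) and in 8.30% of all 32851 mouse windows. TTGCNNAA was in 9 (28.1%, C3, C9, Cpb2 and Serpinc1 among them) and in 10.8% of all. CTGGGAA, a pattern added after the sequences had been seen, was in 6 (18.8%) and in 11.1% of all. A pattern for HNF1, a liver transcription factor, was in 3 (9.38%: C4bp, F13b and Hc) and in 0.399% of all. A pattern for the interferon-stimulated response element was in 1 (3.13%, Vtn) and in 3.44% of all, and an inverted repeat bound by the bile acid receptor FXR in 0, with 0.0274% of all. All patterns were read on both strands, and TTCNNNGAA and CTGGGAA can overlap. No test was made of these shares.

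Levels spanned 86.3-fold when each was divided by the length of the gene's longest transcript that GENCODE marks as principal. The order below can depend on that choice of transcript. In WT livers C3 stood first at 1955 CPM per kilobase, followed by Fga at 1327, Fgg at 1095, Vtn at 903, Kng1 at 615, Fgb at 590, Plg at 570 and F2 at 539. The lowest were F7 at 24.5 (the factor that starts clotting with tissue factor), Pros1 at 22.7 (the cofactor of protein C) and F11 at 22.7 (which amplifies thrombin formation). Neighbours in that order were often closer than their spread, as with Kng1 (SD 99.1), Fgb (SD 102) and Plg (SD 78.9). The 42 genes together made up 3.49 ± 0.297% of the counts in WT (3.19 to 3.89%) and 3.73 ± 0.467% in KO (3.35 to 4.63%).

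**Figure D1:**
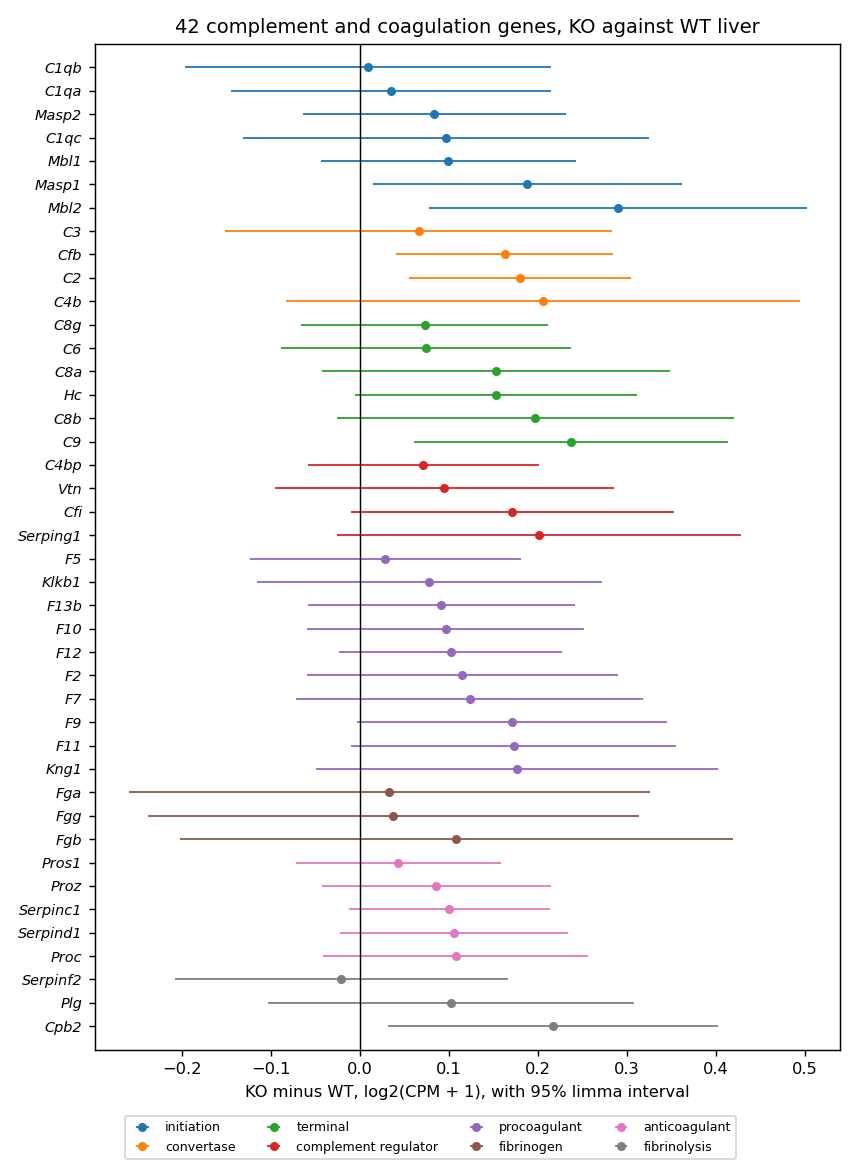
Log2 difference in expression (KO minus WT, log2(CPM + 1) scale) for each of the 42 genes, coloured by role, with 95% limma intervals as bars and the line of no difference at 0. All points but Serpinf2 lie right of 0 and all intervals lie between -0.26 and 0.50.

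Of the 42 genes, 0 passed (limma adjusted p from 0.261 to 0.986) against 0.152% of all genes tested. At an unadjusted limma p under 0.05 there were 6, all with the higher mean in KO, where 4.51% of all genes lay on that side. None of the 42 had such a p with the lower mean in KO, a side that held 5.29% of all genes (9.8% for both sides). An exact permutation test of each gene over all assignments of the 12 samples to 2 groups of 6 gave a two-sided unadjusted p under 0.05 for 7 of the 42, where 9.06% of all genes had one and 0% passed after adjustment. A KO minus WT difference above 0 was found for 41 of 42 genes (97.6%), with 45.6% among all genes, whose median was -0.01. Among the 10 hepatocyte markers 8 had the higher mean in KO and 2 the lower (median 0.07). None of those markers had an unadjusted limma p under 0.05. A lean towards KO was thus not confined to the 42 genes. The direction depended on scaling for some of the 42 genes: 36 of 42 were above 0 after quantile normalization (C1qb, C3, F5, Fgg and Serpinc1 turned) and 35 of 42 when libraries were scaled to the hepatocyte markers (C1qa, C1qb, F5, Fga, Fgg and Pros1 turned). Of all genes 50.7% were above 0 after quantile normalization and 21.5% after hepatocyte marker scaling. None of the 42 had every KO liver above every WT liver (0.359% of all genes did) or every one below (0.533%).

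Single libraries weighed on these counts. KO mouse 6 was the highest of the 12 for 23 of the 42 genes, and without it 35 of 42 differences were above 0 and 4 genes had an unadjusted limma p under 0.05. WT mouse 1 was the lowest for 21 of the 42, and without it 4 genes had such a p. The number was 14 without WT mouse 5, 10 without WT mouse 6 and 11 without KO mouse 1. Among all genes the share with such a p was 9.8% in the fit reported. It was 13.2% without WT mouse 5, 10.9% without KO mouse 1 and 7.198% without WT mouse 1, moving the same way as the number of the 42. It was 9.63% without WT mouse 6 and 9.84% without KO mouse 6, where it did not move with that number. C2, C9, Mbl2 and Cfb had an unadjusted limma p under 0.05 in each of the 12 fits that left out 1 library, and none of the 42 passed in any of them. Because the genes share libraries, a library that is high or low for many of them moves all their differences together. In whole liver, fewer cells of a type and less RNA per cell cannot be told apart.

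**Figure D2:**
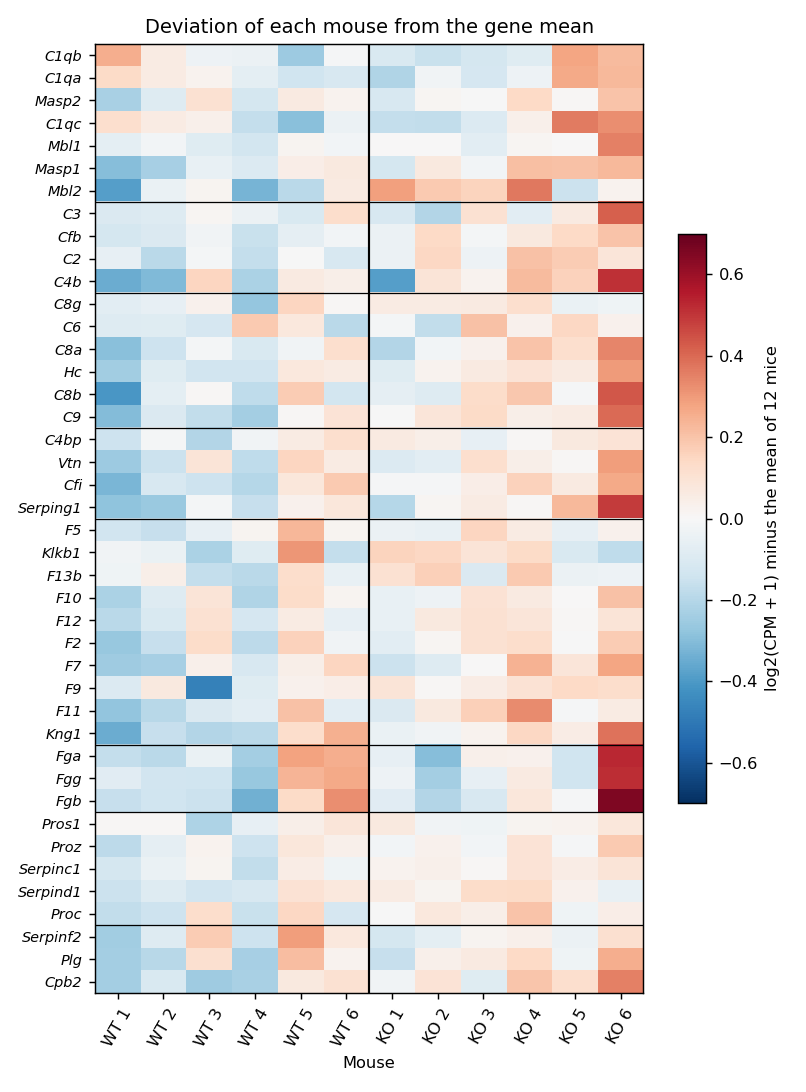
Each row is 1 of the 42 genes and each column 1 library (6 WT, 6 KO); colour gives log2(CPM + 1) minus the gene's mean over the 12 libraries, on a scale from -0.7 to 0.7. KO mouse 6 is the highest library for 23 genes and WT mouse 1 the lowest for 21.

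The 7 genes of complement initiation all had differences above 0 (0.01 to 0.29, median 0.10), and 2 of them, Mbl2 and Masp1, had an unadjusted limma p under 0.05. The A and B chains of C1q had the smallest differences of the 7. C1qa (ENSMUSG00000036887, chr4:136895917-136898803), the A chain, had a lowest, median and highest value of 81.3, 88.2 and 98.4 CPM in WT and 77.4, 87.6 and 108 in KO, with a log2 difference of 0.03 ± 0.08 (SE; limma adjusted p = 0.942). C1qb, the B chain, ran from 105 over 124 to 150 CPM in WT and from 113 over 117 to 153 in KO (difference 0.01, adjusted p = 0.986), and C1qc from 77.6 over 95.1 to 103 and from 84.5 over 93.4 to 123 (0.10, adjusted p = 0.844). In all 3 genes the KO range covered most of the WT range. The 95% interval was -0.15 to 0.22 for C1qa, -0.20 to 0.22 for C1qb and -0.13 to 0.32 for C1qc. The genes are neighbours on chromosome 4, with 3616 bases between C1qb and C1qc and 2851 between C1qc and C1qa.

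Markers of the macrophages that can make C1q lay on opposite sides beside it. Of the 7 Kupffer cell markers tested (resident liver macrophages; Clec4f and Cd5l among them), 7 had the higher mean in KO, 6 with an unadjusted limma p under 0.05 and 0 passing. The other 3 listed, Timd4, Marco and Cd163, were under the minimum of 10 CPM, and all 10 summed to 436 to 618 CPM in WT and 614 to 825 in KO. Of the 8 markers of monocyte-derived macrophages tested (Lyz2, Trem2 and Gpnmb among them), 8 had the lower mean in KO, 6 with an unadjusted limma p under 0.05 and 0 passing. The other 2 listed were under the minimum and had the higher mean in KO: Ly6c2 was at 3.08 ± 0.568 and 5.33 ± 2.40 CPM and Chil3 at 1.66 ± 0.585 and 2.39 ± 1.04 CPM. All 10 summed to 1296 to 2251 CPM in WT and 882 to 1324 in KO. No gene of either list was at 0 in any library. Over the 12 livers Pearson's r of C1qa was 0.298 with the Kupffer score (adjusted permutation p = 0.353), being -0.667 within WT and 0.799 within KO. With the monocyte score it was 0.296 (adjusted permutation p = 0.353), being 0.591 within WT and 0.544 within KO. The part of either cell type in the C1q values was not tested.

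The lectin pathway held the largest difference of the 42. Mbl2 (ENSMUSG00000024863, chr19:30232942-30239687), mannose-binding lectin C, which binds microbial sugars, ran from 37.0 over 44.9 to 50.9 CPM in WT and from 43.8 over 55.0 to 63.2 in KO. Means were 44.3 ± 5.73 and 54.4 ± 6.94 CPM (SD, n = 6 each), a log2 difference of 0.29 ± 0.10 (SE; 95% interval 0.08 to 0.50; two-sided exact permutation p = 0.0238; limma adjusted p = 0.285). In 4 of 6 KO livers it was above every WT liver, and the other two lay within the WT range. Its relative Mbl1 (mannose-binding lectin A) was at 149 ± 5.68 and 160 ± 18.1 CPM (0.10, adjusted p = 0.707), with 1 KO liver at 196 and the next at 155.

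Masp1 (ENSMUSG00000022887, chr16:23449417-23520815), a protease of the lectin complexes, ran from 170 over 200 to 220 CPM in WT and from 193 over 231 to 246 in KO. The log2 difference was 0.19 ± 0.08 (95% interval 0.01 to 0.36; two-sided exact permutation p = 0.0541; limma adjusted p = 0.452), and 3 of 6 KO livers were above every WT liver. Its first 525 bases of span overlap Rtp4, an interferon-induced gene on the opposite strand that averaged 24.8 ± 6.97 CPM in WT livers and 44.8 ± 16.2 in KO livers (0.78, limma adjusted p = 0.260). The sources used here do not say whether the counting kept strands apart, so reads in that overlap cannot be assigned. The same holds for Masp2, C2, Hc, C8g, F5, Serpinc1, Serpind1 and Plg, which with Masp1 make 9 genes that share part of their span with a gene on the other strand. Masp2, which cleaves C4 and C2, was at 110 ± 9.60 and 117 ± 9.15 CPM (0.08, adjusted p = 0.776). It shares 1743 identical bases with Tardbp on the other strand, which averaged 89.4 ± 7.19 CPM in WT livers and 85.3 ± 10.8 in KO livers. Serpinc1 shares 2942 identical bases with Zbtb37 on the other strand, at 36.9 ± 6.90 and 30.7 ± 3.98 CPM.

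The convertase genes had differences from 0.07 to 0.21 (median 0.17), and 2 of 4 had an unadjusted limma p under 0.05. C2 (ENSMUSG00000024371, chr17:34862604-34898265), the protease of the classical and lectin convertase, had the smallest limma p of the 42. It ran from 100.4 over 108 to 114 CPM in WT and from 111 over 124 to 132 in KO, with means of 108 ± 5.82 and 122 ± 8.90 CPM. Its log2 difference was 0.18 ± 0.06 (95% interval 0.05 to 0.30; two-sided exact permutation p = 0.0173; limma adjusted p = 0.261). In 4 of 6 KO livers it stood above every WT liver.

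Cfb (ENSMUSG00000090231, chr17:34856374-34862518), factor B, plays the part of C2 in the alternative pathway. It ran from 956 over 1006 to 1053 CPM in WT and from 1037 over 1145 to 1224 in KO, with means of 1008 ± 39.2 and 1130 ± 73.7 CPM. Here 5 of 6 KO livers were above every WT liver, the most of any of the 42 genes (0.16 ± 0.06, 95% interval 0.04 to 0.29; two-sided exact permutation p = 0.00866; limma adjusted p = 0.296). C2 and Cfb lie on the same strand of chromosome 17 with 85 bases between them, and their ratio did not differ beyond its spread (exact permutation p = 0.686; C2/Cfb 0.107 ± 0.00515 in WT, 0.108 ± 0.00613 in KO, coefficient of variation 5.07% over 12 livers). GENCODE also places a joint gene, Gm20547, over both, which shares 1334 bases with C2 and 2248 with Cfb at over 99.9% identity, so reads of the joint transcript cannot be told from theirs.

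C4b (complement C4), 119 kilobases from C2, had a wider spread: 1411 to 1992 CPM in WT and 1372 to 2551 in KO, medians 1692 and 1953 (0.21 ± 0.13, 95% interval -0.08 to 0.49, adjusted p = 0.694). Its copy C4a is 96.0% identical over 5378 bases and was listed at 7.29 ± 1.23 and 8.48 ± 1.47 CPM, so some reads could have been split between them. C3, the centre of all 3 pathways and the most abundant of the 42, ran from 9521 over 9802 to 11186 CPM in WT and from 8901 over 10226 to 13719 in KO. The lowest and the highest C3 value both came from KO livers, and the difference was 0.07 ± 0.10 (95% interval -0.15 to 0.28, adjusted p = 0.899).

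Among the terminal components (differences 0.07 to 0.24, median 0.15), C9 (ENSMUSG00000022149, chr15:6445327-6498751), the subunit that polymerises into the pore, had an unadjusted limma p under 0.05. It ran from 273 over 307 to 360 CPM in WT and from 337 over 355 to 445 in KO, with means of 312 ± 33.0 and 368 ± 39.1 CPM (0.24 ± 0.08, 95% interval 0.06 to 0.41; two-sided exact permutation p = 0.0216; limma adjusted p = 0.292). Here 2 of 6 KO livers were above every WT liver. The highest value, 445 CPM in KO mouse 6, was followed by 371. C6, which joins the complex after C5, was at 191 ± 18.9 and 201 ± 18.1 CPM (0.07, adjusted p = 0.826), and Hc, the mouse gene of C5 itself, at 847 ± 72.6 and 942 ± 83.5 CPM (0.15, adjusted p = 0.531).

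C8 is built of 3 chains from separate genes. C8a ran from 428 over 501 to 569 CPM in WT and 453 over 551 to 663 in KO (0.15, adjusted p = 0.646). C8b ran from 121 over 151 to 182 and 151 over 169 to 218 CPM (0.20, adjusted p = 0.582), and C8g from 110 over 130 to 147 and 128 over 138 to 144 CPM (0.07, adjusted p = 0.794). All 3 pairs of ranges overlapped, and the C8a/C8b ratio was 3.32 ± 0.361 in WT and 3.20 ± 0.241 in KO.

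The complement regulators differed by 0.07 to 0.20 (median 0.13), with none at an unadjusted limma p under 0.05. Serping1, the C1 inhibitor that also restrains kallikrein and factor XII, ran from 415 over 476 to 533 CPM in WT and from 439 over 518 to 709 in KO (0.20, adjusted p = 0.580). Cfi, the protease that inactivates C3b, was at 358 ± 47.2 and 402 ± 31.0 CPM (0.17, adjusted p = 0.547). C4bp, which binds C4b, was at 553 ± 45.5 and 580 ± 21.9 CPM (0.07, adjusted p = 0.786). Vtn (vitronectin, which blocks insertion of the terminal complex) was the most abundant of the group, from 1355 over 1570 to 1796 CPM in WT and from 1512 over 1648 to 1979 in KO (0.10, adjusted p = 0.806).

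**Figure D3:**
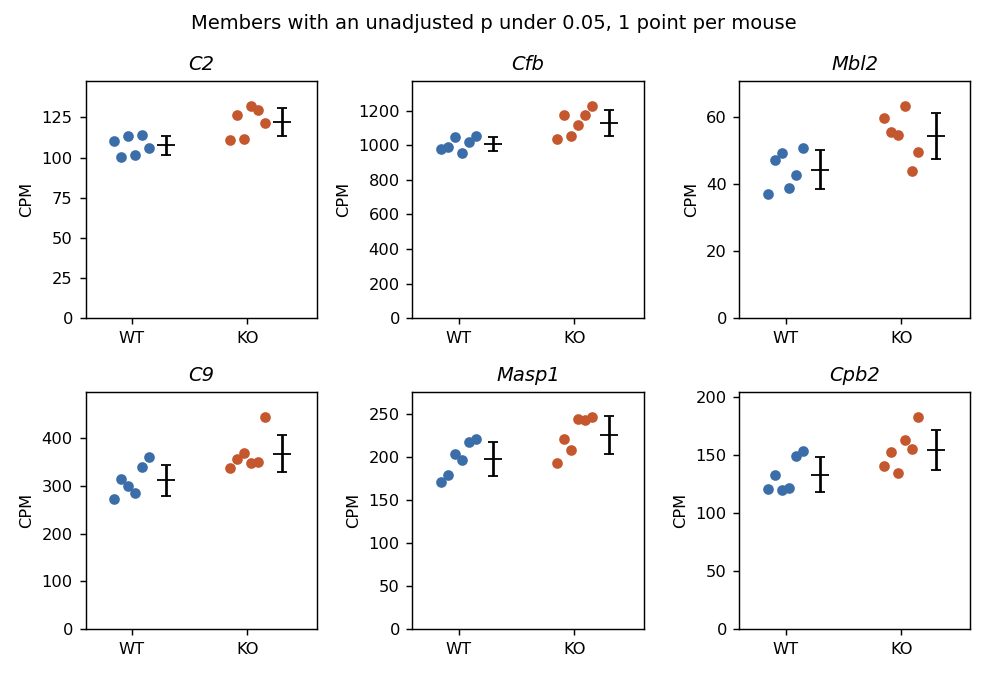
CPM in each of the 6 WT and 6 KO livers for the 6 genes with an unadjusted limma p under 0.05 (C2, Mbl2, C9, Cfb, Cpb2 and Masp1); each point is 1 library and the bars are mean and SD. In every panel the KO mean is higher and the groups overlap; Cfb has 5 of 6 KO livers above every WT liver and C9 has 2.

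In the coagulation cascade none of the 10 procoagulant genes had an unadjusted limma p under 0.05, and all 10 differences were above 0 (0.03 to 0.18, median 0.11). F2, prothrombin, ran from 923.8 over 1040 to 1239 CPM in WT and from 1054 over 1157 to 1254 in KO (0.12, adjusted p = 0.727). F9, factor IX on the X chromosome, ran from 91.8 over 125 to 134 CPM and from 129 over 137 to 141 CPM. In F9 4 of 6 KO livers were above every WT liver (0.17, two-sided exact permutation p = 0.0216; limma adjusted p = 0.525), and the low WT value of 91.8 CPM came from mouse 3 alone, the next being 120. F7 was at 45.6 ± 5.23 and 49.8 ± 6.17 CPM (0.12, adjusted p = 0.742), and F10, which converts prothrombin, at 226 ± 23.4 and 241 ± 16.5 CPM (0.10, adjusted p = 0.750). F5, the cofactor of F10, was at 932 ± 95 and 948 ± 55.5 CPM (0.03, adjusted p = 0.944).

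The contact system, which can start clotting on charged surfaces and release bradykinin, consists of F12, Klkb1 and Kng1. F12 averaged 323 ± 25.6 CPM in WT livers and 346 ± 14.5 in KO livers (0.10, limma adjusted p = 0.629). Klkb1, prekallikrein, was at 214 ± 29.5 and 225 ± 22.0 CPM (0.08, adjusted p = 0.858). An overlapping gene model, Gm45753, holds 2267 identical bases of Klkb1 and was listed at 1.66 and 1.94 CPM, so a few reads may be split. Kng1, kininogen, was the most abundant procoagulant gene by CPM, from 931 over 1048 to 1405 CPM in WT and from 1143 over 1216 to 1538 in KO (0.18, adjusted p = 0.646). It shares 410 bases with its copy Kng2 at 97.8% identity. F11 was at 50.8 ± 6.10 and 57.3 ± 6.18 CPM (0.17, adjusted p = 0.546) and F13b, carrier of the fibrin cross-linking enzyme, at 137 ± 11.5 and 146 ± 12.4 CPM (0.09, adjusted p = 0.755).

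Fibrinogen, whose promoters are printed above, had some of the widest spreads of the 42. Fga ran from 2911 over 3195 to 4184 CPM in WT and from 2797 over 3405 to 4960 in KO (0.03 ± 0.14, 95% interval -0.26 to 0.33, adjusted p = 0.969). Fgb ran from 1825 over 2089 to 2891 and from 2006 over 2239 to 3629 CPM (0.11 ± 0.14, 95% interval -0.20 to 0.42, adjusted p = 0.882). Fgg ran from 1550 over 1730 to 2240 and from 1577 over 1805 to 2666 CPM (0.04 ± 0.13, 95% interval -0.24 to 0.31, adjusted p = 0.964). KO mouse 6 was the top value of all 3, and without it the KO mean of each was below the WT mean (log2 differences of -0.07, -0.01 and -0.06).

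While the single chains varied widely, their proportions varied less. Fga/Fgg was 1.85 ± 0.0845 in WT and 1.84 ± 0.0685 in KO, with a coefficient of variation of 3.98% over the 12 livers, the smallest of the 22 ratios computed. Fgg/Fgb was 0.827 ± 0.0338 and 0.788 ± 0.0453, and Fga/Fgb 1.53 ± 0.0964 and 1.45 ± 0.113. The chains of C1q behaved alike, with C1qa/C1qb at 0.708 ± 0.0457 and 0.720 ± 0.0391. Prothrombin over antithrombin, F2/Serpinc1, was 1.06 ± 0.0778 and 1.07 ± 0.0583.

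The anticoagulants differed by 0.04 to 0.11 (median 0.10), all above 0 and none with an unadjusted limma p under 0.05. Serpinc1, antithrombin, ran from 927 over 1017 to 1085 CPM in WT and from 1050 over 1078 to 1116 in KO (0.10 ± 0.05, 95% interval -0.01 to 0.21, two-sided exact permutation p = 0.0216; limma adjusted p = 0.577), but its difference was -0.02 after quantile normalization. Proc, protein C, was at 273 ± 28.7 and 294 ± 16.5 CPM (0.11, adjusted p = 0.687), and its cofactor Pros1 ran from 65.2 over 76.3 to 80.5 and from 74.2 over 77.0 to 80.1 CPM (0.04, adjusted p = 0.871). Serpind1, heparin cofactor II, was at 395 ± 30.8 and 424 ± 21 CPM (0.11, adjusted p = 0.626), and Proz, which helps inhibit factor X, at 283 ± 20.6 and 300.4 ± 17.6 CPM (0.09, adjusted p = 0.724).

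Fibrinolysis held differences of both signs, from -0.02 to 0.22. Cpb2 (ENSMUSG00000021999, chr14:75242287-75283555) encodes a carboxypeptidase that protects fibrin from plasmin. It ran from 119 over 127 to 153 CPM in WT and from 134 over 153 to 182 in KO, with 3 of 6 KO livers above every WT liver (0.22 ± 0.09, 95% interval 0.03 to 0.40; two-sided exact permutation p = 0.0368; limma adjusted p = 0.390). Plg, plasminogen, ran from 1368 over 1527 to 1879 and from 1446 over 1671 to 1926 CPM (0.10, adjusted p = 0.806). Serpinf2, the plasmin inhibitor, was the 1 gene of the 42 with the lower mean in KO, from 492 over 581 to 713 and from 534 over 578 to 631 CPM (-0.02 ± 0.09, 95% interval -0.21 to 0.17, adjusted p = 0.969).

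The ratio of plasminogen to its inhibitor, Plg/Serpinf2, was 2.65 ± 0.0701 in WT (2.58 to 2.78) and 2.89 ± 0.130 in KO (2.71 to 3.05), and 5 of 6 KO livers were above every WT liver. Its two-sided exact permutation p was 0.00433 and 0.0952 after Benjamini-Hochberg adjustment over the 22 ratios, so it did not pass. Masp1/Masp2 was 1.79 ± 0.105 and 1.93 ± 0.106 (exact permutation p = 0.0498, adjusted 0.548). None of the 22 ratios passed, and these were the 2 with an unadjusted exact permutation p under 0.05.

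**Figure D4:**
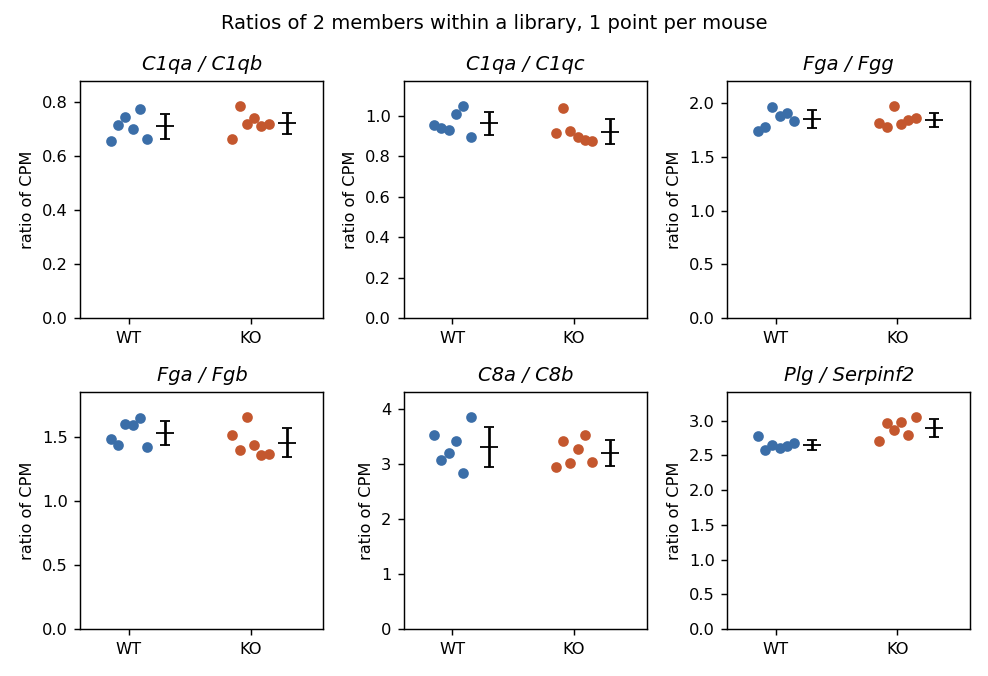
Ratios of CPM between genes whose products act together, for 6 of the 22 pairs; points are the 6 WT and 6 KO livers and bars are mean and SD, with vertical axes from 0. Plg/Serpinf2 has 5 of 6 KO livers above every WT liver, while the chains of C1q, fibrinogen and C8 overlap between genotypes.

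The rest of the 2 systems in these livers was read from lists of other pathway genes. Of 34 other complement genes, 22 were tested: 16 had the higher mean in KO, 6 the lower, 0 passed and 8 had an unadjusted limma p under 0.05 (5 higher and 3 lower in KO), with a median of 0.13. The 4 with the smallest p lay on both sides. Colec10, a lectin-pathway collectin, was at 16.8 ± 4.12 and 27.1 ± 4.74 CPM (0.68, adjusted p = 0.154), and Cfp, properdin, which stabilises the alternative convertase, at 23.7 ± 3.17 and 30.5 ± 4.91 CPM (0.35, adjusted p = 0.238). Itgam and Itgax, subunits of the complement receptors of myeloid cells, were at 30.2 ± 5.96 and 21.3 ± 3.17 CPM (-0.48, adjusted p = 0.170) and at 57.6 ± 10.9 and 44.8 ± 5.89 CPM (-0.35, adjusted p = 0.286). Both integrins also stand in the list of monocyte markers described above. Colec10 also stands in a list of markers of stellate cells, another cell type of the liver. Of the 8 stellate markers tested, Colec10 included, 3 had the higher mean in KO and 5 the lower, with 0 passing. An unadjusted limma p under 0.05 was found for 5 of those 8 (2 higher and 3 lower in KO). The part of stellate cells in the Colec10 values was not tested. C7, the terminal component that the 42 do not include, was under the minimum, at no more than 6.11 CPM in any WT liver and 2.41 in any KO liver.

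Of 35 other genes of coagulation and fibrinolysis, 22 were tested: 12 had the higher mean in KO, 10 the lower, 0 passed and 3 had an unadjusted limma p under 0.05 (1 higher and 2 lower in KO), with a median of 0.03. The 4 with the smallest p again lay on both sides. F8, factor VIII of the sinusoidal endothelium, was at 40.8 ± 7.43 and 53.4 ± 10.4 CPM (0.38, adjusted p = 0.355), while Vwf, its carrier from endothelium and platelets, was at 27.2 ± 6.18 and 21.6 ± 3.34 CPM (-0.31, adjusted p = 0.488). Thbs1, thrombospondin, was at 36.3 ± 6.38 and 28.1 ± 5.61 CPM (-0.36, adjusted p = 0.333), and Serpinb8 at 12.8 ± 2.21 and 10.5 ± 1.86 CPM (-0.26, adjusted p = 0.531). Beside F8, the 10 markers of sinusoidal endothelium all had the higher mean in KO (median 0.20, 3 with an unadjusted limma p under 0.05, 0 passing; median sums of 391 CPM in WT and 473 in KO). Platelet transcripts were low, the 5 in the table summing to 6.07 to 7.57 CPM in WT and 6.09 to 8.33 in KO. The part of these cells in the values was not tested.

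The acute-phase and interferon responses, known to act on several of these genes, were read from the same libraries. Of 14 acute-phase genes outside the 42 (Saa1, Orm1 and Hp among them), 13 had the higher mean in KO, 0 passed and 1 had an unadjusted limma p under 0.05 (median 0.20). Their mean log2(CPM + 1) was highest in KO mouse 6, at 9.26, followed by WT mouse 6 at 8.79. Of 16 interferon-response genes, 16 had the higher mean in KO, 1 passed (Cxcl9, a chemokine gene on chromosome 5, 0.95, limma adjusted p = 0.0133) and 14 had an unadjusted limma p under 0.05 (median 0.70). Of 12 liver transcription factors and regulators, 9 had the higher mean in KO, 0 passed and 1 had an unadjusted limma p under 0.05 (median 0.10).

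Relations of single genes of the 42 with these lists were computed over the 12 livers for 13 pairs, chosen after the group differences had been seen. Each list was scored by the mean log2(CPM + 1) of its genes. The permutations shuffled all 12 livers without regard to genotype, so a pooled r and its p include the difference between genotypes. C2 and Cfb were among the 6 genes with an unadjusted limma p under 0.05, and all 16 interferon-response genes had the higher mean in KO. Values of r within genotypes were not tested. C2 followed the interferon score (Pearson's r = 0.847, permutation p = 0.00041, adjusted 0.00344; Spearman's rho = 0.825, permutation p = 0.0016, adjusted 0.0104). Leaving out the 2 livers farthest from the median score, WT mouse 4 and KO mouse 2, r was 0.833 (permutation p = 0.00233), and within genotypes it was 0.655 in WT and 0.696 in KO. Cfb gave r = 0.812 (permutation p = 0.00113, adjusted 0.0049; rho = 0.762, permutation p = 0.00538, adjusted 0.0233), 0.753 without those 2 livers, and 0.317 in WT and 0.695 in KO. For C4b r was 0.452 (adjusted permutation p = 0.181) and for Serping1 0.401 (adjusted permutation p = 0.235).

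C3 followed the acute-phase score (r = 0.908, permutation p = 0.00053, adjusted 0.00344; rho = 0.846, permutation p = 0.001, adjusted 0.0104), with r of 0.955 in WT and 0.917 in KO and 0.635 (permutation p = 0.0471) without WT mouse 6 and KO mouse 6. C9 gave r = 0.759 (adjusted permutation p = 0.00923; rho = 0.699, adjusted 0.0343), but 0.453 (permutation p = 0.188) without those livers. Fgb gave r = 0.822 (adjusted permutation p = 0.00923; rho = 0.524, adjusted 0.120) and 0.121 (permutation p = 0.737) without them, so for Fgb the relation rests on those 2 livers. Within genotypes r of C9 was 0.631 in WT and 0.902 in KO. For C4bp r was 0.505 (adjusted permutation p = 0.125). The pairs share libraries and a common total, which ties shares to each other.

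**Figure D5:**
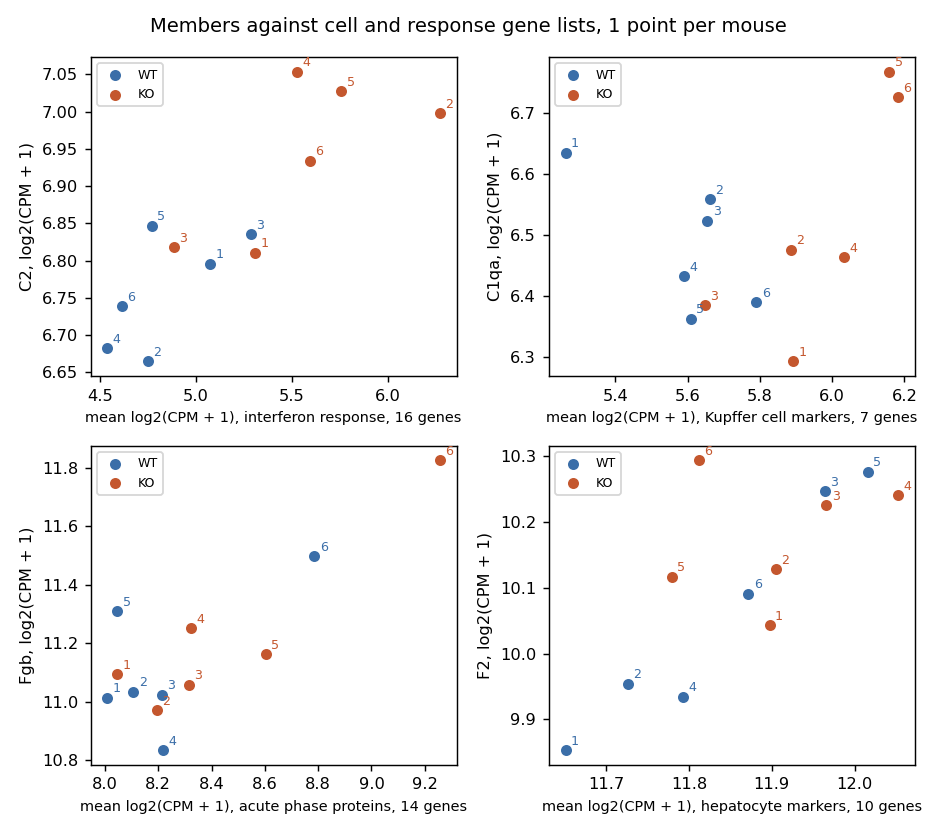
Expression of C2, C1qa, Fgb and F2 (vertical axes, log2(CPM + 1)) against the mean log2(CPM + 1) of a gene list (horizontal axes) in the 6 WT and 6 KO livers, 1 numbered point per library. C2 follows the interferon list along its range (r = 0.847), C1qa shows r = 0.298 with the Kupffer list, Fgb and the acute-phase list are both highest in KO mouse 6, and F2 against hepatocyte markers gives r = 0.778.

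With the hepatocyte marker score F2 gave r = 0.778 (adjusted permutation p = 0.00923; rho = 0.692, adjusted 0.0343), Plg 0.688 (adjusted permutation p = 0.0229; rho = 0.734, adjusted 0.0293) and Serpinf2 0.685 (adjusted permutation p = 0.0229; rho = 0.629, adjusted 0.0609). Without WT mouse 1 and KO mouse 4, r was 0.651, 0.563 and 0.629 (permutation p = 0.0459, 0.0922 and 0.0525). Within WT the 3 values were 0.975, 0.947 and 0.969, and within KO they were 0.212, 0.0941 and 0.0403, so the pooled relation held in WT livers and was near 0 for Plg and Serpinf2 in KO livers. The difference between genotypes was not tested.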

How the data were processed

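The table gives CPM for 20143 genes in 12 libraries, 6 per genotype, as the authors deposited it; each column sums to 1000000, so raw counts were not used. Per the labels' protocols, RNA was extracted with TRIzol and columns, treated with DNase, depleted of globin and ribosomal RNA and made into directional libraries. The submitters' processing notes name mm10, STAR 2.7.3a, Partek 10.0 and DESeq2 1.14.1 without roles; they leave the counter, its annotation and its strand setting unnamed. Of the 20143 identifiers, 20055 have a symbol and 88, with 9.59% of the counts, have none. Low values came out as whole multiples of 1 read for only 70.9 to 75.1% of them (tolerance 0.02), so no count test was run.

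Genes averaging 10 CPM or more were tested with limma 3.58.1 (R 4.3.3) on log2(CPM + 1), two-sided, with a mean-variance trend and adjustment over all genes; the fit was tested on simulated data. A log2 difference on that scale slightly understates low genes. Exact permutation tests ran over all assignments of the 12 samples and correlations over 100000 permutations (SciPy 1.17.1, Python 3.11.15). Copies were found with BLASTN 2.17.0 on GENCODE M21 transcripts (at least 95% identity over 200 bases). Promoters came from RefSeq, GRCm38.p6.

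The 42 genes, the lists and the 13 relations were chosen with earlier results of these data known. Lowest, median and highest values were given for genes with an unadjusted limma p under 0.05, for subunits of C1q, C8 and fibrinogen, and for several others of the 42. The remaining genes of the 42, and up to 4 genes of each list of other pathway genes, were given by mean and SD. Alternatives were other pseudocounts, low-value filters, scalings, a fit without the trend, library weights, a replicate block and leaving out each library.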

Additional observations from a re-analysis of the deposited data

Results flagged for a closer look

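Among the 102 sets of 6 values checked (Hsd17b13, the 42 genes and the 8 other pathway genes named, in each genotype), 7 held a library whose gap to the next was large for the range of its set, where chance gives about 1 in 20. KO mouse 6 was far above the other KO livers in 5 of them: Fga at 4960 CPM (next 3526), Fgb at 3629 CPM (next 2439), Fgg at 2666 CPM (next 1947), C9 at 445 CPM (next 371) and Mbl1 at 196 CPM (next 155). WT mouse 3 was far below the other WT livers for F9, at 91.8 CPM with the next at 120 CPM. WT mouse 5 was far above them for Klkb1, at 270.3 CPM with the next at 215 CPM.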

How the results depend on the processing

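None of the 42 genes passed in the fit reported or in any of the 22 alternatives; with library weights their smallest limma adjusted p was 0.0860 and with the replicate block 0.151. The count of all genes that passed (14) was 29 without a filter, 31 with a minimum of 1 CPM, 35 with library weights, 9 with hepatocyte marker scaling (chosen after seeing the data) and 9 (without WT mouse 3) to 25 (without KO mouse 3) when 1 library was left out. The 6 genes with an unadjusted limma p under 0.05 became 14 with library weights and 1 (Mbl2) with hepatocyte marker scaling. After quantile normalization they were 5, without Cfb, and leaving out 1 library gave 4 to 14. The share of all genes with such a p was 9.8% in the fit reported and 14.7% with library weights. That share was 10.6% after quantile normalization and 6.37% with hepatocyte marker scaling. It was 7.12% (without KO mouse 2) to 13.2% (without WT mouse 5) when 1 library was left out. With the replicate block 12 of the 42 and 10.6% of all genes had such a p. The labels do not say whether the mouse numbers pair the samples. Same-numbered WT and KO livers correlated from -0.51 to 0.39, and not every liver matched its own number best. These correlations cannot show whether same-numbered samples shared a litter or batch. The median log2 difference of 0.10 was 0.07 after quantile normalization, 0.04 after hepatocyte marker scaling and 0.09 to 0.14 when 1 library was left out.

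Some differences turned sign. After quantile normalization C1qb was at -0.0101, C3 at -0.00289, F5 at -0.0537, Fgg at -0.0462 and Serpinc1 at -0.0230. With library weights C1qb was at -0.0101 and Serpinf2 at 0.0256. After hepatocyte marker scaling C1qa was at -0.0296, C1qb at -0.0554, F5 at -0.0365, Fga at -0.0320, Fgg at -0.0276 and Pros1 at -0.0211. Leaving out 1 library gave -0.0150 to 0.0801 for C1qa, -0.0452 to 0.0612 for C1qb, -0.0110 to 0.114 for C3, -0.000848 to 0.0779 for F5, -0.0693 to 0.0959 for Fga, -0.0112 to 0.184 for Fgb, -0.0621 to 0.0946 for Fgg and -0.0719 to 0.0349 for Serpinf2. The causes were not tested. Limits are the 6 libraries per genotype, values as shares of a library, and whole liver as the tissue; depth was not limiting.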
